A study of Homo sapiens with 4 samples.

Results

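Ubiquitin ligases and the adaptors that bring substrates to them were followed through an m6A comparison of BEAS-2B cells. The genes were chosen by symbol: RNF, TRIM, MARCHF, UBR, HECT, FBX, KLHL, KBTBD, BTBD and cullin genes, with HUWE1, ITCH, NEDD4, MDM2, MDM4, CBL and CBLB. RNF213 and every symbol with a hyphen were left out. The rule used names alone and no measured value. It found 122 genes with 173 m6A peaks among the 6763 genes and 9466 peaks of the table.

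BEAS-2B is a line of human bronchial epithelium that was immortalised for culture. One arm carried a plasmid that overexpresses METTL16, a methyltransferase of U6 small nuclear RNA and of MAT2A mRNA whose product is N6-methyladenosine (m6A), and the other arm carried an empty control plasmid. Each of the 2 arms gave 1 input library and 1 library enriched with an m6A antibody (MeRIP-seq), 4 libraries in all with no replicates. No difference given here therefore has a replicate check, and no test between the arms was possible. The label does not name the promoter of the plasmid or the time after transfection. METTL16 has 0 lines in the table used here, so the overexpression itself was not checked. Of 12 bronchial epithelial markers, KRT8 was listed at 54.2 FPKM in METTL16 cells and 46.1 FPKM in control cells, and KRT18 at 59.0 and 59.6 FPKM. The other 10 had no line, which says only that no listed peak lay on them. FPKM are fragments per kilobase of transcript, scaled to library size, and those printed here are input levels. The vimentin gene VIM stood at 510.0 against 499.0 FPKM, and of 9 markers of other cell types 2 were listed, CD68 at 57.7 against 41.6 FPKM and COL1A1 at 2.28 against 2.33 FPKM. Neither PTPRC nor CD3E, the defining leukocyte markers, had a line.

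Ubiquitin reaches a protein through a relay of activating, conjugating and ligating enzymes, and the ligase (E3) chooses the substrate. RING ligases, among them the RNF, TRIM and MARCHF proteins, MDM2 and CBL, hold the loaded conjugating enzyme next to the substrate. HECT ligases first take ubiquitin onto a cysteine of their own. Cullin ligases are built from parts: a cullin scaffold, a RING subunit, and an exchangeable receptor. Among the receptors followed here are F-box proteins on the SKP1 adaptor and BTB proteins on CUL3. In mRNA, m6A lies mostly around stop codons and in 3'UTRs and marks transcripts for readers that act on decay, splicing and translation.

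Most peaks of ubiquitin ligase genes had a lower m6A value in METTL16 cells, at about the proportion found in the table as a whole. Of the 173 peaks, 42 were higher and 131 lower. That is a lower share of 75.7% (Clopper-Pearson 95% interval 68.6 to 81.9), against 71.5% of all listed peaks. The interval covers the counting of peaks alone, since peaks of 1 library pair are not replicates. The median log2 fold change of m6A in the authors' deposited table, METTL16 cells over control cells, was -0.38 for these genes and -0.38 for all listed peaks. Their range in the authors' deposited table ran from -6.55, an intronic peak of ITCH, to 5.79, a peak of CUL4B. Since 45 peaks lay between the common median and 0, their direction depends on where the zero of the scale is set. Centred on the median of all listed peaks, 49.7% were lower.

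A peak is called differential when its p-value is below 0.05 and its change at least 2-fold, which is the authors' own mark. Every listed peak already has a p-value below 0.05. By that mark 65 of the 173 peaks, 37.6% (30.3 to 45.2), were differential, against a background of 43.7% of all listed peaks. Of these, 23 were higher and 42 lower, while 16.5% of all listed peaks were differential and higher and 27.2% differential and lower. Centred on the common median, the balance turned, with 35 higher and 32 lower peaks at 2-fold or more. Differential peaks lay on 56 of the 122 genes, of which 22 held a higher one and 38 a lower one. At an adjusted p below 0.05 in the authors' deposited table stood 43 of the 173 peaks, 35 of them lower, and 11 of the 43 were differential. The authors' deposited table leaves the adjusted p of 11 differential peaks empty, and these include the extreme values of ITCH, CUL4B and CBLB. The shares by family below can be read against these backgrounds, which include noncoding RNA. Of all other listed peaks 10.9% were noncoding exon peaks, 70.4% of them differential, while the set held 1 such peak.

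**Figure D1:**
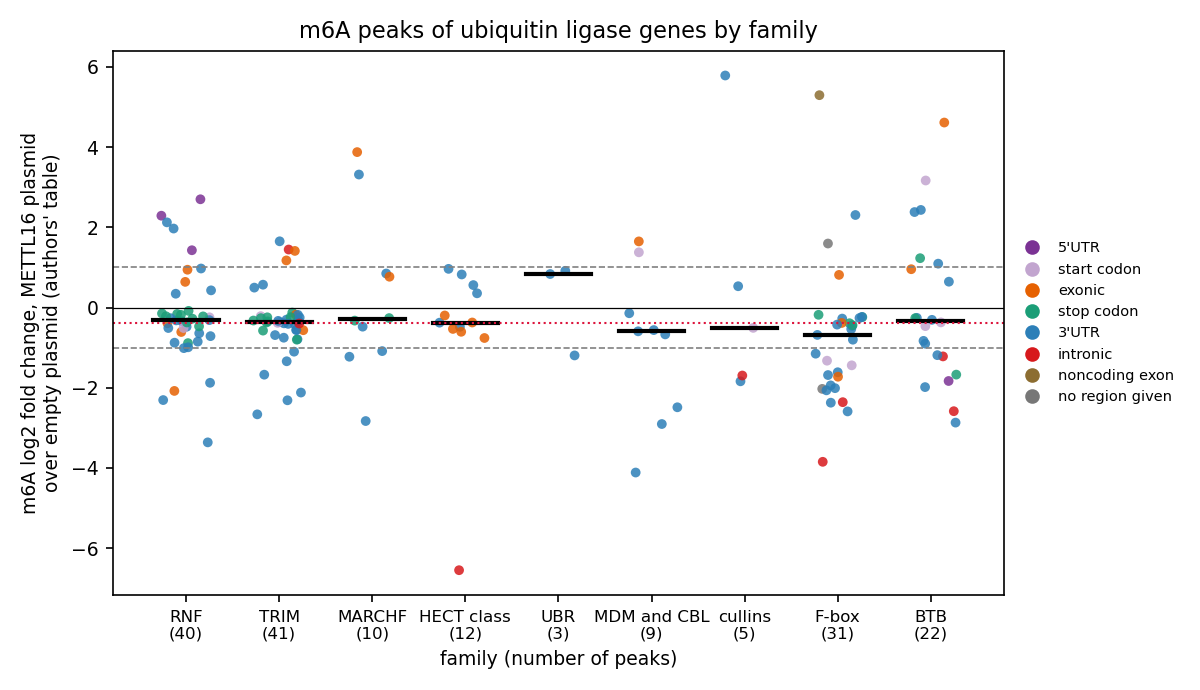
Each point is 1 m6A peak of a ubiquitin ligase gene, placed by family on the x axis and by its log2 fold change (METTL16 plasmid over empty plasmid, authors' deposited table) on the y axis, coloured by annotated region. Black bars are family medians, dashed lines mark 2-fold (log2 of 1 and -1), and the red dotted line is the median of all listed peaks, -0.38. F-box peaks have a median of -0.68, and most stop codon peaks lie close under 0.

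The largest group, the RNF genes, gave 40 peaks on 32 genes, of which 30 were lower and 10 differential, 5 in each direction. Their median was -0.32 in the authors' deposited table. The highest values lay at the 5' end. RNF34, a ligase known to target caspases, had adjoining 5'UTR peaks (chromosome 12, 121400157 to 121402780 and 121402805 to 121405021 on hg38) at 2.70 and 1.43 in the authors' deposited table. RNF146, which recognises poly(ADP-ribosyl)ated proteins such as axin, had a 5'UTR peak at 2.29 (p = 0.00834) in the authors' deposited table. Input levels of both were nearly equal, with 9.07 against 9.46 FPKM for RNF34 and 5.05 against 5.15 FPKM for RNF146. Higher 3'UTR peaks of the authors' deposited table were those of RNF182 at 2.12 and RNF187 at 1.97, although a second 3'UTR peak of RNF187 stood at -0.27.

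Lower RNF peaks were led by RNF4, the SUMO-targeted ligase. Its 3'UTR peak of 101 bases (chromosome 4, 2512181 to 2512281) stood at -3.36 in the authors' deposited table, next to a stop codon peak at -0.15. RNF44 had a 3'UTR peak at -2.31, with an adjusted p of 0.045 in the authors' deposited table. RNF220 had an exonic peak at -2.08 in the authors' deposited table, but that peak spans 206717 bases with its introns and is the longest of the set. A smaller change with a much smaller p was found for RNF40, which with RNF20 ubiquitylates histone H2B, at an exonic peak of 0.94 (p = 1.21e-05) in the authors' deposited table. RNF40 had 15.3 against 15.6 FPKM. Of the 10 RNF peaks at stop codons, all were lower, from -0.89 for RNF152 to -0.08 for RNF145 in the authors' deposited table.

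TRIM genes carried the smallest p-values of the set with small changes. Their 24 genes had 41 peaks, 35 of them lower (85.4%, interval 70.8 to 94.4) and 10 differential, with a median of -0.36 in the authors' deposited table. Centred on the common median, 18 of the 41 were lower (43.9%). TRIM25, which ubiquitylates the RNA sensor RIG-I, had the smallest p of all 173 peaks, 2.09e-12, at a 3'UTR peak of -0.34 in the authors' deposited table (chromosome 17, 56891233 to 56892229). TRIM38, a regulator of innate immune signalling, followed with -0.24 at a peak labelled stop codon (p = 5.53e-10) in the authors' deposited table. That peak spans 22013 genomic bases. TRIM14, an adaptor at mitochondria in antiviral signalling, had -0.39 in its 3'UTR (p = 4.17e-09) in the authors' deposited table. TRIM56 at -0.33, TRIM26 at -0.38 and TRIM32 at -0.32 were of the same size in the authors' deposited table, with p-values of 1.95e-07, 6.47e-06 and 1.30e-05. All these values lie close to the common median of -0.38, and of them only the TRIM14 value stays below zero when that median is subtracted.

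Larger TRIM changes were found at other peaks. TRIM7 had -2.31 and TRIM68 -2.12 at 3'UTR peaks of the authors' deposited table, but TRIM7 stood at only 0.12 against 0.23 FPKM. TRIM2, a ligase of neurofilament light chain, had 1.65 at a 3'UTR peak of 101 bases in the authors' deposited table, and TRIM22, an interferon-induced antiviral gene, had 1.45 at an intronic peak. TRIM33, a ligase of SMAD4, had a 3'UTR peak at -1.34 per the authors' deposited table with 13.8 against 13.6 FPKM. The exonic peaks of TRIM23 and TRIM4 stood at 1.41 and 1.17 in the authors' deposited table, with adjusted p-values of 0.0434 and 0.0252. TRIM25 also had peaks at -2.66 and 0.57 per the authors' deposited table, but these lie 36815 and 51447 bases beyond the 3' end of the gene in the RefSeq annotation. The TRIM25 peak with the smallest p shares bases with a listed peak of an unnamed gene on the opposite strand, as do both TRIM38 peaks.

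Input levels of TRIM genes were more often higher than lower in METTL16 cells. Of 22 TRIM genes with at least 1 FPKM in either input, 16 were higher (72.7%, 49.8 to 89.3), against 42.1% of all 5467 such genes. The median log2((FPKM + 1)/(FPKM + 1)) was 0.07, against -0.02 for all genes. TRIM21, the cytosolic antibody receptor, was the most abundant with 67.8 FPKM in METTL16 cells and 60.2 FPKM in control cells. TRIM38 had 23.3 against 18.1 FPKM, TRIM26 38.2 against 31.3 FPKM, TRIM25 35.2 against 32.2 FPKM and TRIM22 27.3 against 25.5 FPKM. TRIM65 went the other way with 2.96 against 3.77 FPKM. None of these 22 TRIM genes reached 1.5-fold. TRIM16 and TRIM7, below 1 FPKM in both inputs, had 0.99 against 0.59 FPKM and 0.12 against 0.23 FPKM. In bulk RNA, a change in the cells that carry a transcript and a change in RNA per cell cannot be told apart.

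Many TRIM genes are known interferon targets, so their promoters were searched for the core of the interferon-stimulated response element, which is GAAA, then any 2 bases, then GAAA again, on both strands and with overlapping matches kept. This search was chosen after the input values were seen. The window was 300 bases, 250 before the RefSeq start and 50 after it (GRCh38.p14), and 97 of the 122 genes had one. The start is that of the promoter table, which for TRIM16 lies inside the span of the gene. The word was found in 7 of the 97 (7.22%), and all 7 were among the 19 TRIM promoters (36.8%), against 996 of 27305 promoters in the RefSeq table (3.65%). The 30 bases around each match follow, read on the strand of the gene, with the matched bases in capitals. A match read as TTTC words lies on the opposite strand.
TRIM14 (chr9:98119229-98119258, minus strand): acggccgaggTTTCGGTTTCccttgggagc
TRIM16 (chr17:15683012-15683041, minus strand): acagaggtaaGAAATAGAAAtaaagggtcc
TRIM2 (chr4:153151936-153151965, plus strand): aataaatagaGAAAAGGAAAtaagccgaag
TRIM21 (chr11:4393663-4393692, minus strand): ctgagcgGAAACTGAAAGTGAAAtagggag
TRIM26 (chr6:30213578-30213607, minus strand): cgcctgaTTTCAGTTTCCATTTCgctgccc
TRIM44 (chr11:35662730-35662759, plus strand): tcctgacgggGAAAGGGAAAgtggaaccgg
TRIM69 (chr15:44736456-44736485, plus strand): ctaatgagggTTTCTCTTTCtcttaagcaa
TRIM21 and TRIM26 each hold 2 overlapping matches. Of TRIM genes at 1 FPKM or more, 4 of 6 with the word had a higher input level (median log2 change 0.04) and 9 of 11 without it (median 0.12). Over all genes at 1 FPKM or more, 86 of 142 with the word were higher (60.6%) and 1754 of 4224 without it (41.5%). A match is a description of letters, and binding was not measured.

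The membrane-bound MARCHF ligases had 10 peaks on 7 genes, 6 lower and 5 differential. MARCHF5, a ligase of the outer mitochondrial membrane, had a 3'UTR peak at -2.83 and a stop codon peak at -0.33 in the authors' deposited table. MARCHF4 showed the same order, with -1.23 in its 3'UTR and -0.26 at its stop codon in the authors' deposited table. Both had an adjusted p below 0.05 (0.0263 and 0.00114), but the peak labelled stop codon spans 114067 genomic bases. The higher values, 3.32 for MARCHF1 and 3.88 for MARCHF10 in the authors' deposited table, were on transcripts under 0.2 FPKM in both inputs. The most abundant member, MARCHF7, had 19.3 against 18.6 FPKM.

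HECT ligases and their relatives had the fewest differential peaks for their number, 1 of 12. That peak, in an intron of ITCH (ENSG00000078747, chromosome 20, 34419334 to 34419434), was the lowest of the whole set at -6.55 (p = 0.0029, adjusted p empty) in the authors' deposited table. ITCH, which limits immune signalling through substrates such as JUNB, also had a 3'UTR peak at 0.35 per the authors' deposited table, and its input levels were 7.51 against 8.62 FPKM. NEDD4, a ligase of membrane proteins, was higher at both of its 3'UTR peaks, at 0.82 (p = 8.16e-08) and 0.56 (p = 3.75e-07) in the authors' deposited table. Both lie near the 3' end of the gene (chromosome 15, 55840687 to 55842143 and 55829371 to 55830585). HUWE1, a large ligase of MCL1 and p53, had exonic peaks at -0.20 and -0.37, and HECTD4 had -0.53 and -0.61 in the authors' deposited table. HECTD3 had a 3'UTR peak at -0.38 per the authors' deposited table.

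All 7 HECT genes had lower input levels in METTL16 cells, each by a small amount. HUWE1 had 38.6 against 42.0 FPKM, NEDD4 20.9 against 23.4 FPKM, HECTD3 6.85 against 7.27 FPKM and HECTD4 5.26 against 5.82 FPKM. The median log2 change was -0.12. The 3 UBR genes, ligases of the N-degron pathway, were lower too, with 10.8 against 13.7 FPKM for UBR7, 5.35 against 5.77 FPKM for UBR3 and 6.23 against 6.34 FPKM for UBR1. Their single 3'UTR peaks stood at 0.84 for UBR7, -1.19 for UBR3 and 0.92 for UBR1 in the authors' deposited table. HECT and UBR genes are long, with median genomic spans of 154624 and 163142 bases, against 21250 for TRIM genes. Among all other genes, 37.0% of those above 80000 bases had a higher input level and 44.8% of those up to 10000 bases. Members of the set did not follow that order, with 36.4% higher up to 10000 bases, 53.1% and 57.6% in the classes between, and 30.3% above 80000 bases. The part of gene length in the family values was not tested.

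The p53 ligase MDM2 was the most abundant transcript of the set, with 110.2 FPKM in METTL16 cells and 85.9 FPKM in control cells, a log2 change of 0.36. Its 3'UTR peak was nearly level at -0.14 (p = 7.64e-08) in the authors' deposited table. Its partner MDM4, which binds p53 and restrains it, had 5.72 against 6.12 FPKM. MDM4 carried a start codon peak (chromosome 1, 204516428 to 204525552) at 1.38 and 3'UTR peaks at -0.67 and -2.91 per the authors' deposited table. CBL and CBLB ubiquitylate receptor tyrosine kinases. CBL had 1 peak at -0.56 in the authors' deposited table and 14.0 against 13.1 FPKM. CBLB (ENSG00000114423) had 4 peaks along chromosome 3, and their values were lower the nearer they lay to the 3' end of the gene. An exonic peak (105751615 to 105853627) stood at 1.65, with an adjusted p of 0.00571 in the authors' deposited table. That peak spans 102013 genomic bases. The peaks labelled 3'UTR stood at -0.59 (105685384 to 105703994), -2.49 (105670338 to 105670463) and -4.12 (105657910 to 105658010) in the authors' deposited table. The gene runs on the minus strand, so the last of these is nearest its end. CBLB input was 1.76 against 1.67 FPKM.

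Of the cullin scaffolds, CUL4B, CUL7 and CUL9 had listed peaks. CUL4B (ENSG00000158290) held the highest value of the set, 5.79 (p = 0.00847, adjusted p empty) at a peak labelled 3'UTR (chromosome X, 120523069 to 120523319) in the authors' deposited table. That peak lies 539 bases beyond the 3' end of the RefSeq gene. A neighbouring CUL4B peak within the gene stood at 0.53 in the authors' deposited table, and the input was 4.97 against 4.48 FPKM. CUL7, the scaffold that works with FBXW8, had a 3'UTR peak at -1.84 (adjusted p = 0.0404) per the authors' deposited table, with 3.66 against 4.52 FPKM. CUL9, which anchors p53 in the cytoplasm, had an intronic peak at -1.70 and a start codon peak at -0.51 in the authors' deposited table, with 2.85 against 3.12 FPKM.

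F-box genes, the substrate receptors of the SKP1 and CUL1 ligase, had the lowest median among the families, -0.68 in the authors' deposited table. Of their 31 peaks on 24 genes, 27 were lower (87.1%, 70.2 to 96.4) and 17 differential (54.8%, 36.0 to 72.7), 14 of these lower. The 16 peaks of FBXO genes included 15 lower ones, and all 8 of their differential peaks were lower. FBXO34 had an intronic peak (chromosome 14, 55285276 to 55285451) at -3.85 and a stop codon peak at -0.18 in the authors' deposited table. FBXO22 had 3'UTR peaks at -2.59 and -1.61, and FBXO11, a receptor for BCL6, an intronic peak at -2.36 and a 3'UTR peak at -0.54 per the authors' deposited table. FBXL18 had 3 lower 3'UTR peaks, at -2.37, -2.01 and -0.68, and FBXL20 a pair at -2.07 and -1.68 in the authors' deposited table.

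Higher F-box peaks were few. FBXL13 had 2.31 in the authors' deposited table at 0.09 against 0.12 FPKM. FBXW11P1, a pseudogene of FBXW11 whose reads can be assigned to its parent, had 5.30 in the authors' deposited table at 0.05 against 0.17 FPKM. Input levels of F-box genes were balanced in total, 10 higher and 10 lower of 20. The subfamilies differed, with 8 of 10 FBXO genes higher and 2 of 9 FBXL genes higher. FBXL14, a receptor for the transcription factor SNAI1, had the largest input change of the set, 1.84 against 0.50 FPKM, and with the pseudocount of 1 was the only member to pass 1.5-fold. Its log2 change on that scale was 0.92, and its stop codon peak stood at -0.39 in the authors' deposited table.

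BTB genes, receptors of the CUL3 ligase or proteins with the same domain, differed among themselves. Of 22 peaks on 18 genes, 14 were lower and 13 differential (59.1%, 36.4 to 79.3), 6 higher and 7 lower. The 3 KBTBD genes had 1 lower differential peak each. KBTBD8, a regulator of neural crest formation, stood at -2.87, KBTBD6 at -1.98 and KBTBD4 at -1.83 in the authors' deposited table. Of 8 BTBD peaks, 5 were higher, led by a start codon peak of BTBD10 (chromosome 11, 13445071 to 13462690) at 3.17 (adjusted p = 0.0412) and a 3'UTR peak of BTBD7 at 2.38 in the authors' deposited table. KLHL genes went both ways, with 2.43 for a 3'UTR peak of KLHL23 and -2.59 for an intronic peak of KLHL29 in the authors' deposited table. The value of 4.61 for KLHL4 in the authors' deposited table belongs to a transcript at 0.43 against 0.52 FPKM.

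Input levels of BTB genes were mostly lower in METTL16 cells, in 13 of 15 genes, against 57.9% of all genes. The higher share was thus 13.3% (1.66 to 40.5). KLHL23 had 1.59 against 2.62 FPKM, KLHL17 1.32 against 1.82 FPKM, BTBD2 4.88 against 6.09 FPKM and BTBD10 12.1 against 12.7 FPKM. The exceptions were KBTBD8, with 2.03 against 1.09 FPKM, and KLHL29, with 4.89 against 4.85 FPKM. KLHL23 thus had a higher m6A value with a lower input level, and KBTBD8 a lower m6A value with a higher one. If the m6A value is set relative to input, the measures are not separate.

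**Figure D2:**
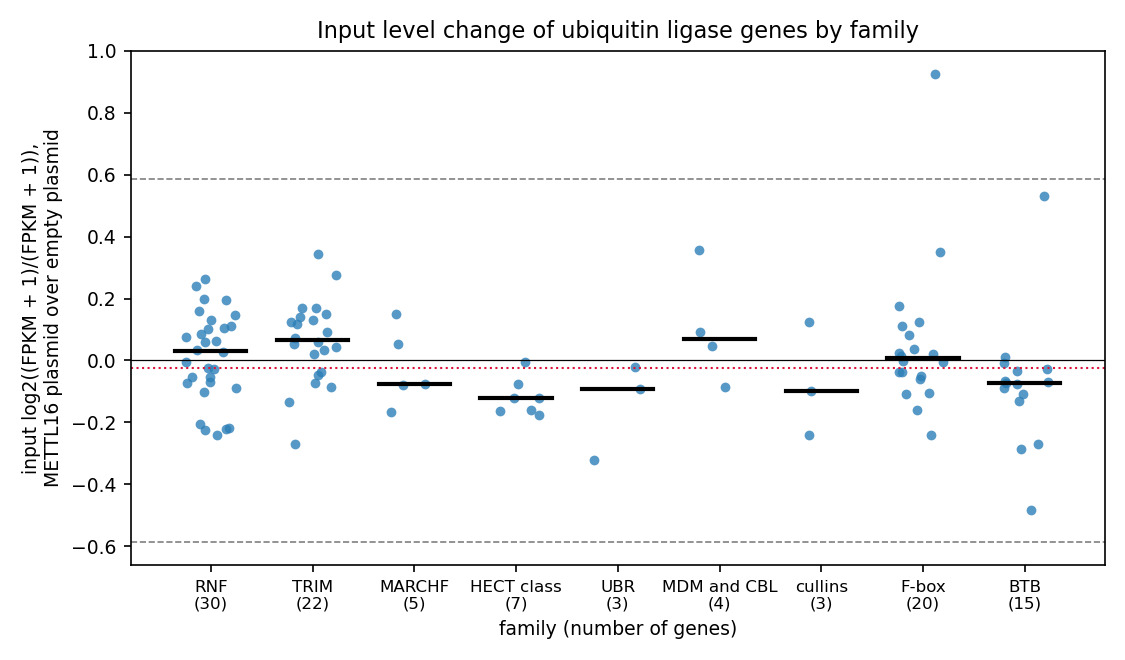
Each point is 1 gene with at least 1 FPKM in either input, placed by family and by its input change, log2((FPKM + 1)/(FPKM + 1)) of METTL16 plasmid over empty plasmid. Black bars are family medians, the red dotted line is the median of all genes, -0.02, and dashed lines mark 1.5-fold. With this pseudocount, FBXL14 at 0.92 is the only point beyond them, and all 7 HECT points lie below 0.

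Across the set, input levels moved little. Of 109 genes with at least 1 FPKM in either input, 50 were higher and 59 lower, with a median log2 change of -0.01. The other 13 were below 1 FPKM in both. FBXL14 was 1 of 109 genes at least 1.5-fold higher, where 0.549% of all genes were, and 0 of 109 were at least 1.5-fold lower, where 0.402% were. These counts use log2(FPKM + 1), and with a pseudocount of 0.1 KBTBD8 also passed on the higher side and KLHL23 on the lower side. The higher share grew with abundance in the set, at 33.3% of 24 genes below 3 FPKM and 66.7% of 27 genes at 12 FPKM or more. In all other genes these shares were 40.5% and 44.9%. Of 30 RNF genes with at least 1 FPKM in either input, 16 were higher and 14 lower, with a median log2 change of 0.03. RNF111, which acts on TGF-beta signalling, had the highest RNF change, with 11.2 against 9.21 FPKM, and RNF149 had a log2 change of 0.24. RNF214 had the lowest, a log2 change of -0.24, with 5.83 against 7.06 FPKM. RNF145 was the most abundant RNF gene, with 36.4 against 35.8 FPKM.

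The position of a peak in the transcript went with its value. Peaks labelled 3'UTR made up 97 of the 173 (56.1%), against 42.6% of all other listed peaks, with 38 differential (39.2%, against 39.5%). Their median was -0.48 in the authors' deposited table, against -0.42 elsewhere. Noncoding exon peaks made up 10.9% of all other listed peaks and 0.578% of the set, so the 3'UTR shares compare unlike mixes of genes. Stop codon peaks were nearly uniform. Of 28, 27 were lower (96.4%, against 82.4% of other stop codon peaks), and 2 were differential (7.14%, against 12.3% of other stop codon peaks). Their median of -0.27 in the authors' deposited table lies above the common median, as does the -0.29 of other stop codon peaks. Once that median is subtracted, 21 of the 28 are above zero (75%), as are 65.8% of the others. The single higher one was that of BTBD11, at 1.23 in the authors' deposited table with 0.18 against 0.20 FPKM.

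Intronic peaks were 8 in number, of which 7 were differential (87.5%, against 85.7% of other intronic peaks) and 7 lower, with a median of -2.03 against -0.94 in the authors' deposited table. TRIM22 was the exception. Exonic peaks were the most balanced, with 10 higher and 12 lower of 22. The 4 peaks in 5'UTRs were all differential (against 67.4% of other 5'UTR peaks), 3 of them higher. Those are the peaks of RNF34 and RNF146, and 71.8% of other 5'UTR peaks were lower.

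Within 1 gene, peaks of different regions can be set against each other free of any zero point. Several peaks of 1 region in a gene were averaged. In all 5 genes of the set with both, the exonic peak stood above the mean of the 3'UTR peaks, in TRIM4, TRIM23, CBLB, BTBD2 and RNF214. The differences ran from 0.21 in RNF214 to 4.05 in CBLB on the log2 scale, with a median of 2.51. In 291 other genes the exonic peak was the higher one in 56.7%, with a median difference of 0.10. All 8 genes with both had a stop codon peak above the mean of the 3'UTR peaks, against 68.6% of 239 other genes. The difference ran from 0.02 in TRIM14 to 3.22 in RNF4 (median 0.42, against 0.20 in other genes). In TRIM56 a single 3'UTR peak, at -0.25, stood above the stop codon peak at -0.27 in the authors' deposited table. Peaks labelled stop codon can be long, at 22013 genomic bases in TRIM38 and 114067 in MARCHF4. The exonic peaks of CBLB and RNF214 also span 102013 and 34530 genomic bases. Intronic peaks lay below the 3'UTR peaks in ITCH, BTBD2 and FBXO11, and below the stop codon peak in KLHL29 and FBXO34. In other genes the intronic peak stood above the 3'UTR peaks in 55.1% of 205 and above the stop codon peak in 38.3% of 47. With so few genes, these counts describe the set and support no statement on ligase genes as a class.

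**Figure D3:**
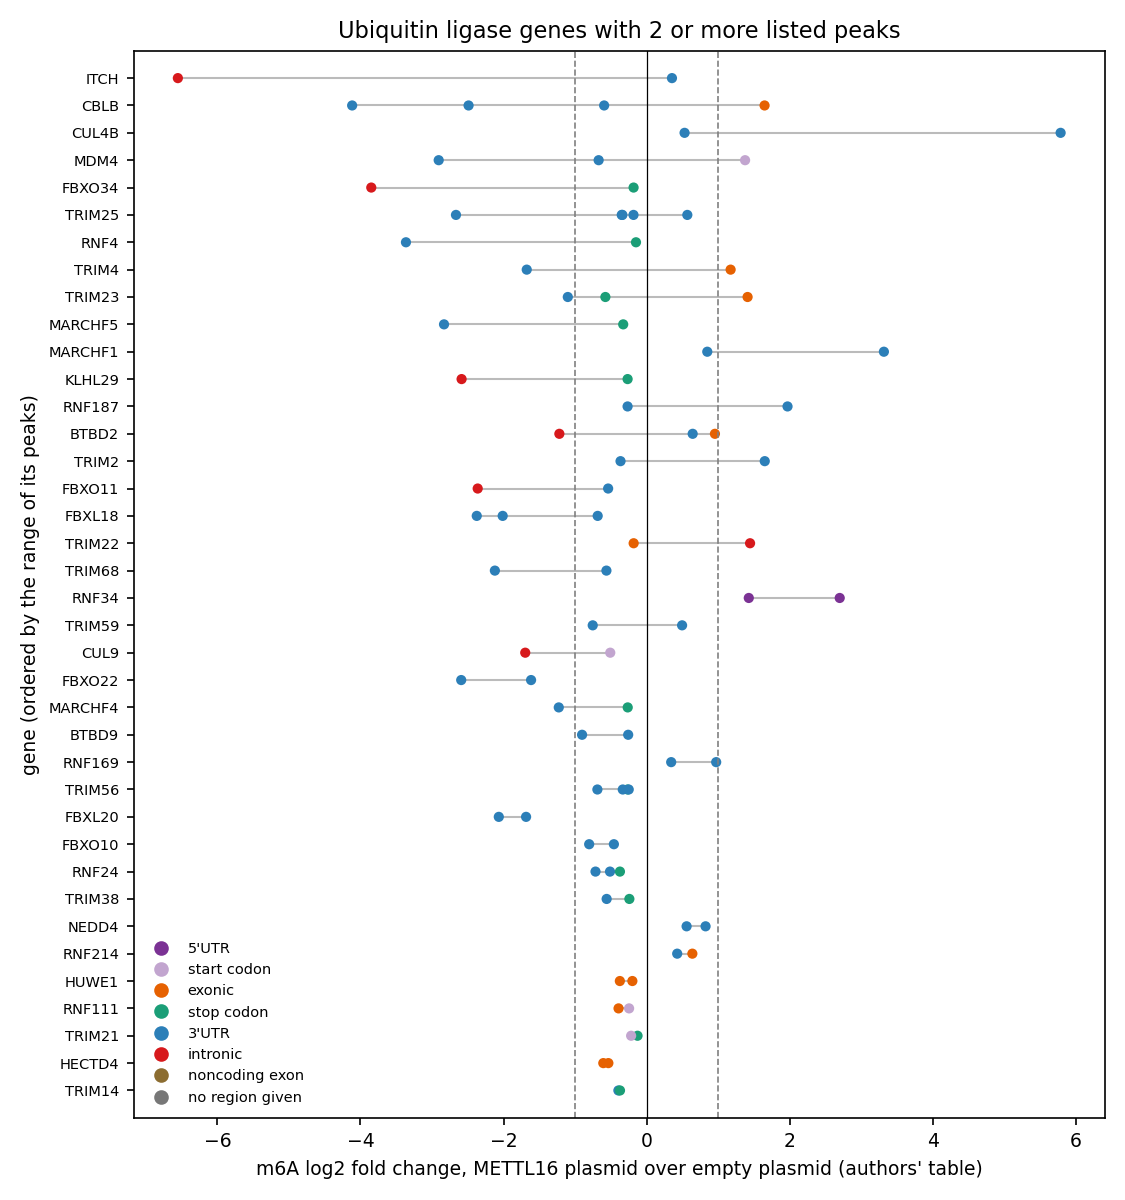
Each row is 1 gene with 2 or more listed peaks (1 of the 39 is not shown), ordered by the range of its values, and each point is 1 peak at its m6A log2 fold change (METTL16 plasmid over empty plasmid, authors' deposited table), coloured by region. Dashed lines mark 2-fold. ITCH spans -6.55 to 0.35 and CBLB -4.12 to 1.65, while TRIM14 and HECTD4 at the bottom have near-equal peaks.

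Of the 122 genes, 83 had 1 listed peak and 39 had several: 31 genes had 2, 5 had 3, TRIM56 and CBLB had 4 and TRIM25 had 5. In 12 of the 39 the peaks had mixed signs (30.8%, against 38.6% of other genes with several peaks), in 21 all were lower and in 6 all higher. After subtraction of the common median, 20 had mixed signs. Differential peaks in both directions were found in CBLB, MDM4, TRIM4 and TRIM23, 4 of the 39 (10.3%, against 13.4% of other genes). The genes with all peaks higher were CUL4B, MARCHF1, NEDD4, RNF34, RNF169 and RNF214, and TRIM56 was lower at all 4, from -0.69 to -0.25 in the authors' deposited table.

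Large changes lay on short peaks and low transcripts. Among peaks of up to 200 bases, 22 of 30 were differential (73.3%), and among those of 1001 to 5000 bases 6 of 46 (13.0%). The shares for all other genes were 79.6% and 22.2%. By input level, 28 of 49 peaks on genes below 3 FPKM were differential (57.1%, against 70.5% in other genes), and 6 of 42 on genes at 12 FPKM or more (14.3%, against 16.9%). F-box and BTB genes, with median input levels in METTL16 cells of 3.74 and 3.06 FPKM, had larger shares of differential peaks (54.8% and 59.1%) than TRIM and RNF genes (24.4% and 25%), at 7.69 and 9.20 FPKM. The part of abundance in that order was not tested.

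**Figure D4:**
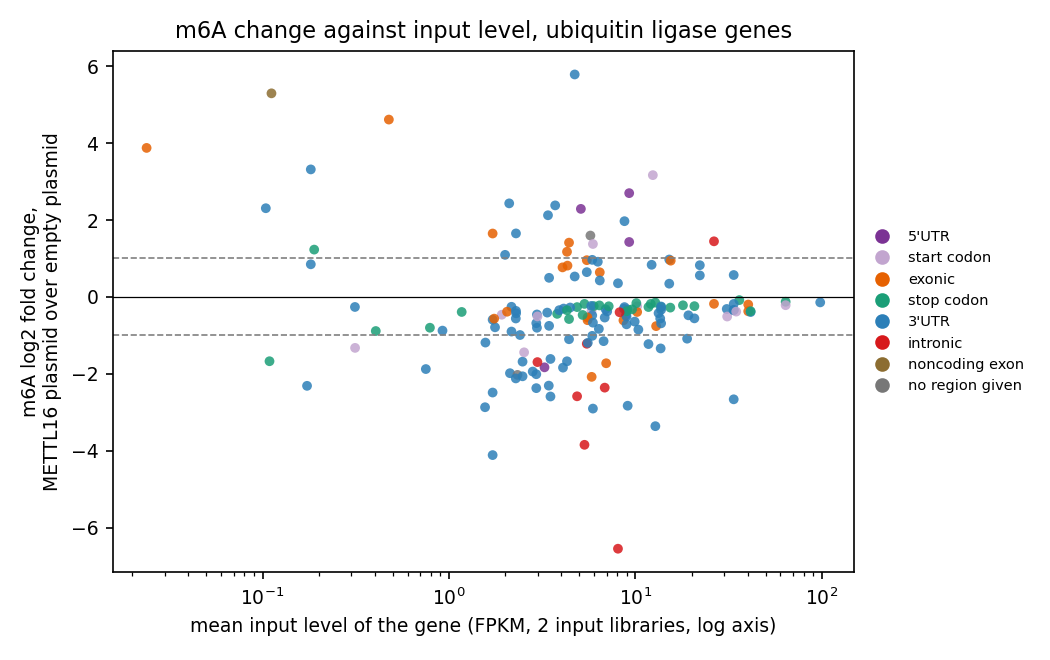
Each point is 1 peak of a ubiquitin ligase gene, with the mean input level of its gene in FPKM on a log axis (x) and its m6A log2 fold change, METTL16 plasmid over empty plasmid, from the authors' deposited table (y), coloured by region. Dashed lines mark 2-fold. Points spread widely on the left, where 57.1% of peaks below 3 FPKM are differential, and close in on the right, where 14.3% are at 12 FPKM or more.

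Other parts of the ubiquitin ligase machinery, outside the symbol rule, gave a similar balance. The list held 99 genes chosen by function, of which 53 had a line in the table. Their 72 peaks were lower in 56 cases (77.8%, 66.4 to 86.7), with 31 differential (43.1%), and a median of -0.48 in the authors' deposited table. Of the 72, 9 were differential and higher and 22 differential and lower, against 16.5% and 27.2% of all listed peaks. Genes with a higher differential peak numbered 9, and those with a lower one 18. Of the 53, 19 had a higher input level (35.8%, 23.1 to 50.2), against 42.1% of all 5467 genes at 1 FPKM or more. SKP1, the adaptor that holds F-box proteins, had a start codon peak at 1.90 in the authors' deposited table, and SKP2, an F-box protein that targets p27, a 3'UTR peak at 3.25 (adjusted p = 0.00443) with 1.77 against 2.69 FPKM. CAND1, which exchanges the receptors of cullin ligases, had 3 lower 3'UTR peaks at -2.83, -2.37 and -2.13 per the authors' deposited table. VHL, the receptor for hypoxia-inducible factor, had -1.14 (adjusted p = 0.00241) in the authors' deposited table. UBE3A, a HECT ligase outside the rule, had -2.59 in an intron and -2.18 in its 3'UTR, and ARIH1, which works with cullin ligases, had 3'UTR peaks at 4.45 and -3.51 per the authors' deposited table.

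Some values rest on peaks that are hard to assign. Of the 173 peaks, 9 lie outside the RefSeq span of their gene, among them those of CUL4B and RNF215 and both of TRIM59. A further check found 14 peaks, RNF215 included, that share bases with a listed peak of another gene on the opposite strand, and 0 on the same strand. The pairs include CBL with MCAM, FBXO11 with MSH6, KBTBD4 with PTPMT1 and RNF24 with PANK2. The library protocol marks strand, but whether strand was used in counting is not given in the sources used here. Over the 152 peaks with neither feature, 76.3% were lower and 59 were differential.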

How the data were processed

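Input RNA and m6A-enriched RNA of 4 libraries were measured, 1 per group. Per the submitters' processing notes, fastp 0.19.4 trimmed the reads and hg38 was the genome build. The sources used here name no aligner, peak caller or expression program. The authors deposited 1 table of their own comparison, with m6A given per peak as a log2 fold change, its p-value and the adjusted p. The authors also deposited input expression as FPKM per gene, with its ratio between the arms and a p-value, which compare reads of single libraries. The deposited peak length counts genomic bases, introns included. Sequencing depth is unknown, since no counts were used, and levels in the enriched libraries were not analysed here. Per the labels, nothing says that the arms were separate cultures beyond their treatment.

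Members were found by the symbol rule, and peaks were counted by direction, family and region with Python 3.11.15, pandas 2.3.3 and scipy 1.17.1. Input change used a pseudocount of 1 and genes reaching FPKM 1 in either input, which understates the change of low genes. Shares have exact Clopper-Pearson 95% intervals for counting error only. The counting was tested on simulated data. Promoters are those of RefSeq on GRCh38.p14. Members, lists and the naming rule were chosen with earlier results of these data known. The rule named 63 members: the extremes of differential m6A where both inputs reached FPKM 1, the extremes of input change, the smallest p-values, the genes with most peaks or opposed peaks, the leading members of each family, and all cullin, HECT, MDM and CBL genes. Other genes were named after their values were seen. The values of some genes are not reported here.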

Additional observations from a re-analysis of the deposited data

How the results depend on the processing

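With 1 library per arm, nothing here is known beyond these libraries, and the direction of small changes depends on the zero of the m6A scale. Centred on the median of all listed peaks, the lower share of member peaks was 49.7% in place of 75.7%, the lower share of stop codon peaks 25% in place of 96.4%, and the median lay below 0 in 3 families in place of 8. The count of differential peaks was 67 with that centring (35 higher, 32 lower) and 65 without (23 higher, 42 lower), but 11 with an adjusted p below 0.05 in addition and 32 at 4-fold. The higher share of BTB genes by input was 13.3%, and 0% of the 5 genes with at least 5 FPKM. The other 32 alternatives, which were 1 peak per gene, other pseudocounts and level filters, the smallest p per region, and peaks of clear assignment, kept counts within 1.5 times and shares within the interval of the main share. The last 2 of these kinds, the family shares by input and the centring of stop codon peaks were chosen after seeing the data. Other pseudocounts could not move a share, since the sign of an input change is the same at any pseudocount. The level filters kept the same 7 HECT genes, and clear assignment kept the same 5 genes with exonic and 3'UTR peaks. Those alternatives therefore say nothing on how stable the shares are. Intervals of small families are wide, at 0 to 41.0% for the 7 HECT genes, so a share within them is a weak check. When centred, 10 differential peaks, all lower ones, came under 2-fold, those of BTBD2, KLHL17, MARCHF4, MARCHF7, TRIM23, TRIM33 and UBR3 among them, and 12 others passed it. In input, KBTBD8 and KLHL23 passed 1.5-fold at a pseudocount of 0.1, KBTBD8 also at 0.5. No paired analysis was possible because each group has 1 library. The search for m6A motifs within peaks was not run, since the bases of the peaks were not read here. Read coverage was not analysed here.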
